A study of Saccharomyces cerevisiae with 4 samples.

Results

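The vacuolar protein sorting genes of budding yeast were taken as every spot whose gene symbol in the array's annotation is VPS followed by digits alone. The pattern found 82 spots for 41 genes, 2 spots each, among 12800 spots and 5539 named genes. Some genes of the same machinery carry other names, such as PEP1 (also VPS10) and VAM6 (also VPS39), and these are treated as partners and not as members. VPS71, VPS72 and VPS75 match the pattern and encode chromatin proteins, so the name does not mark 1 function.

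Transcripts were compared between Saccharomyces cerevisiae BY4741 cells grown for 2 h with 30 µg/ml Congo red and untreated cells from the other part of that culture, in rich medium at 24 °C. BY4741 is a haploid strain (mating type a) in which HIS3, LEU2, MET17 and URA3 are deleted, and both arms carry these deletions. Congo red is a dye that binds wall polysaccharides and disturbs wall assembly. There was 1 group of 4 2-colour arrays, each with treated and untreated RNA, and the channel of the treated RNA was swapped: it was channel 2 for arrays 1 and 3 but channel 1 for arrays 2 and 4. Nothing says that separate cultures lie behind the arrays, and p-values therefore reflect just the scatter among 4 arrays, possibly technical.

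All values below are log2 ratios, averaged over a gene's spots, with each array's median over all spots set at 0. They are read as Congo red over untreated, a direction that is likely but not settled, since the labels name neither the dyes nor the ratio. The basis is a set of 8 genes known to be induced by cell wall stress through the Slt2 kinase and the Rlm1 factor. On arrays 1 to 4 their medians were 1.96, 1.18, 2.11 and 2.07, and each one measured was above 0 on every array, under both channel assignments. Blank spots made up 1.67% to 9.3% of each array, and the 4 arrays limit the precision.

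Proteins made in the endoplasmic reticulum reach the vacuole, the yeast counterpart of the lysosome, by way of the Golgi and endosomes. VPS genes were found in yeast mutants that secrete carboxypeptidase Y, a vacuolar enzyme, and their products bud, tether and fuse the vesicles on this route, sort membrane proteins into endosomes and return receptors to the Golgi. In yeast this machinery also handles cell surface proteins taken in by endocytosis, among them enzymes and transporters of the plasma membrane.

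No VPS gene passed the test for a change with Congo red. Of the 41 genes, 40 had values on at least 3 arrays and entered a limma fit over 5489 genes, and 0 had a Benjamini-Hochberg adjusted p under 0.05, the smallest being 0.63. Over all genes 0.0911% passed as higher and 0% as lower. Of the cell wall stress genes used to read the direction, 7 could be tested and 2 passed, though all 7 had an unadjusted limma p under 0.05. CWP1, 1 of these genes, was at 2.45 ± 0.20 (SE, n = 4) with a limma adjusted p of 0.062. A gene that fails this test may thus still have changed. At an unadjusted limma p under 0.05, 2 members were higher, VPS27 and VPS30, which is 5% against 5.37% of all genes, and 0 were lower against 2.37%. The shares of VPS genes at this level were near or below those of the whole array. The 95% intervals of 26 of the 40 genes lay wholly within 1 log2 unit of 0, which is 65% against 67.8% of all genes. Half-widths of these intervals ran from 0.34 to 2.38 with a median of 0.58, against a median of 0.53 over all genes, so smaller changes in most members could not be detected. The intervals are not adjusted for the number of genes, and the adjusted test needs larger changes still.

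As a set the VPS genes lay slightly above the array median. The median of their means was 0.20, against -0.01 for all genes tested, and 28 of 40 means were above 0, which is 70% against 48%. With arrays 2 and 4 turned in sign, as they would need if the ratios ran by channel, 20 of 40 means were above 0, which is 50% against 53.1%. That turn would also put every measured marker gene of cell wall stress below 0 on arrays 2 and 4. Array medians of the members were 0.13, 0.16, 0.26 and -0.03 on arrays 1 to 4, so array 4 did not share the shift. Above 0 on all 4 arrays were 5 of the 39 genes measured on each, VPS5, VPS17, VPS27, VPS62 and VPS68, or 12.8% against 9.54%. Below 0 on all 4 were VPS34 and VPS75, 5.13% against 8.65%. Means ran from -1.09 for VPS34 to 1.11 for VPS501, and 3 of 40 lay more than 1 from 0, which is 7.5% against 5.47%. Each of the 3 came within 1 of 0 when single arrays were left out. VPS34 was at -0.46 without array 1, VPS501 at 0.47 without array 2, and VPS33 at 0.26 without array 1 and 0.69 without array 3.

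**Figure D1:**
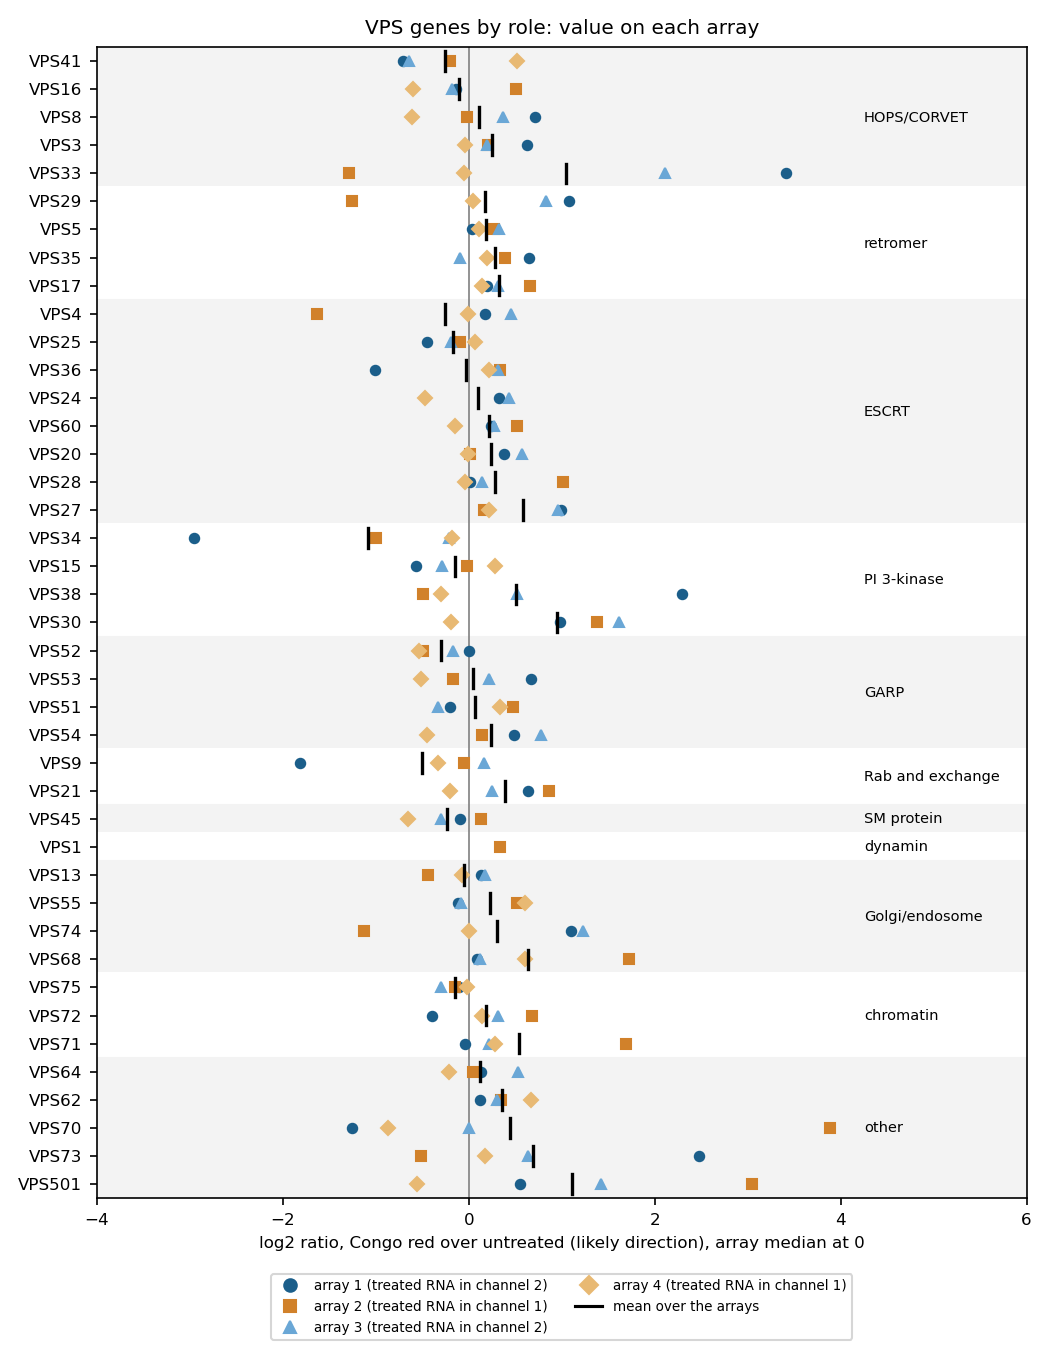
Log2 ratio (x axis, Congo red over untreated in the likely direction, array median at 0) of each of the 41 VPS genes (y axis, grouped by role) on the 4 arrays, with a bar at the mean of genes with 3 or more values. Most genes sit within 1 unit of 0, and the wide ones, such as VPS33 from -1.29 to 3.42 and VPS70 from -1.25 to 3.88, have arrays on both sides of 0.

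HOPS and CORVET are tethers that hold membranes together before fusion at the vacuole and the endosome, and they share a core that includes Vps16 and Vps33. Their 5 VPS members had a median of 0.11, with 3 means above 0 and 2 below. VPS33 (YLR396C), which encodes the Sec1/Munc18-type subunit that acts on SNARE pairs, was at 3.42, -1.29, 2.11 and -0.05 on arrays 1 to 4. It was high on arrays 1 and 3 and at or below 0 on arrays 2 and 4, so its mean of 1.05 ± 0.83 (SE, n = 4, limma adjusted p = 0.75) stands for no array. The values of arrays 1 and 2 rest on 1 spot each.

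The other core and specific subunits stayed closer to 0. VPS16 (YPL045W) was at -0.14, 0.51, -0.18 and -0.60, with array 2 alone above 0. Its spots were at 1.03 and -0.01 on array 2 and at 0.69 and -1.05 on array 3, so these values average discordant spots. VPS41 (YDR080W), the HOPS subunit that binds vesicles of the adaptor AP-3 route, was at -0.70, -0.20, -0.64 and 0.51, and only array 4 was above 0. Its array 3 spots were at -0.08 and -1.19. The CORVET subunit genes VPS8 (YAL002W) and VPS3 (YDR495C) had means of 0.11 ± 0.25 (SE, n = 4) and 0.25 ± 0.17, and both were highest on array 1, at 0.71 and 0.63, and lowest on array 4.

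Among partners of the tethers, 0 of 3 tested passed over all genes. PEP3 and PEP5, which encode the remaining core subunits, were at -0.20 ± 0.16 (SE, n = 4) and 0.17 ± 0.20. VAM6, the counterpart of Vps41 at the other end of HOPS, was at -0.21, -0.11, 8.40 and -2.68. Its array 3 value holds 1 spot at the table's upper limit, a ratio of 100000, and its other spot on that array was at -0.27, and the mean of 1.35 ± 1.89 is set by that spot.

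Retromer carries the sorting receptor Vps10 from endosomes back to the Golgi. Its 4 VPS genes all had means above 0, from 0.17 to 0.33, as did 48% of all genes. The mean of VPS29 fell to -0.13 without array 1. VPS17 (YOR132W) and VPS5 (YOR069W) encode the sorting nexins that bend the membrane. VPS5 was at 0.04, 0.27, 0.32 and 0.11, above 0 on every array and within a range of 0.29, with a mean of 0.19 ± 0.14 (SE, n = 4, limma adjusted p = 0.74). VPS17 was at 0.19, 0.66, 0.31 and 0.14, with a mean of 0.33 ± 0.15 (limma adjusted p = 0.68). Its array 2 value averages spots at -0.96 and 2.27, and the gene is thus less steady than its array means look.

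The cargo-binding part of retromer gave no common level. VPS35 (YJL154C), its scaffold, was at 0.65, 0.39, -0.09 and 0.19. VPS29 (YHR012W), which binds the scaffold's far end, was at 1.07, -1.26, 0.83 and 0.05, high on arrays 1 and 3 and low on array 2. Its array 2 value rests on 1 spot. The partner genes PEP8, the third subunit of that part, and PEP1, the receptor itself, were at 0.06 ± 0.15 (SE, n = 4) and -0.04 ± 0.17. Neither of these 2 partners passed over all genes.

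ESCRT complexes gather ubiquitin-tagged membrane proteins and pinch them into the endosome's interior, from which they reach the vacuole for breakdown. Their 8 VPS members had a median of 0.16, with 5 means above 0 and 3 below. VPS27 (YNR006W), the ESCRT-0 subunit that first binds ubiquitin and phosphatidylinositol 3-phosphate, was at 0.99, 0.17, 0.96 and 0.22. It was above 0 on every array, near 1 on arrays 1 and 3 and lower on arrays 2 and 4, with a mean of 0.58 ± 0.22 (SE, n = 4), or 1.50-fold, and a 95% interval of 0.03 to 1.14. Its limma p was 0.043 unadjusted and 0.63 adjusted. Where both spots had a value they lay within 0.45 of each other.

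The VPS members of ESCRT-I and ESCRT-II, VPS28, VPS36 and VPS25, had means between -0.17 and 0.28. VPS28 (YPL065W), of ESCRT-I, was at 0.01, 1.01, 0.14 and -0.04, and stood apart on array 2 through 1 spot at 2.05 beside another at -0.02. VPS36 (YLR417W), the ESCRT-II subunit that binds ubiquitin, was at -1.005, 0.33, 0.31 and 0.22, with array 1 alone below 0. There 1 spot was at -1.78 and the other at -0.23. VPS25 (YJR102C), of ESCRT-II, kept its spots within 0.13 of each other and was at -0.45, -0.09, -0.19 and 0.07.

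ESCRT-III genes encode the subunits that polymerise on the membrane. VPS20 (YMR077C), which starts the polymer, had a mean of 0.24 ± 0.17 (SE, n = 4), and VPS60 (YDR486C), a later-acting relative, 0.22 ± 0.16. The array 1 value of VPS20 averages spots at -0.53 and 1.28, and its array 3 value rests on 1 spot. VPS24 (YKL041W), a core subunit, had no value on array 2 and was at 0.32, 0.44 and -0.47 on arrays 1, 3 and 4. VPS4 (YPR173C), the ATPase that takes the polymer apart, was at 0.18, -1.63, 0.45 and -0.01. Both of its array 2 spots were low, at -1.36 and -1.91, and the mean was -0.25 ± 0.39 (limma adjusted p = 0.87).

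Of 12 ESCRT partners tested, 0 passed over all genes, with 7 means above 0 and 5 below and a median of 0.01. SRN2, an ESCRT-I subunit, was below 0 on every array, at -0.38, -0.03, -0.38 and -0.29, with a mean of -0.27 ± 0.14 (SE, n = 4, limma adjusted p = 0.70). BRO1, which recruits the ubiquitin hydrolase of this step, was at 1.18, 0.79, 0.00 and -0.02, with 1 spot each on arrays 1 and 2. HSE1, the partner of Vps27 in ESCRT-0, was at -3.50, -0.21 and -0.21 on arrays 2 to 4, with its array 2 spots at -1.26 and -5.74.

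Vps34 is the only phosphatidylinositol 3-kinase of yeast, and it works with the protein kinase-like Vps15 and with Vps30 in a complex for vacuolar sorting, marked by Vps38, and another for autophagy, marked by Atg14. VPS34, VPS30 and VPS38 varied widely and VPS15 did not, with a range of 0.85 over the arrays. The median range of the 4 was 2.29 against 0.91 for all genes. VPS34 (YLR240W) was at -2.95, -0.997, -0.21 and -0.18, below 0 on each array and lowest on array 1, with a mean of -1.09 ± 0.52 (SE, n = 4, limma adjusted p = 0.68). The array 1 spots were at -1.70 and -4.21.

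VPS30 (YPL120W), the counterpart of mammalian Beclin 1, was at 0.98, 1.38, 1.62 and -0.19. Arrays 1 to 3 were high and array 4 was not, and the mean was 0.95 ± 0.34 (SE, n = 4), or 1.93-fold, with a limma p of 0.038 unadjusted and 0.63 adjusted. Its paired spots were far apart on those 3 arrays, at -0.01 and 1.97, at 3.68 and -0.92, and at 2.90 and 0.34. On array 4 they were at -0.34 and -0.05. The high array means thus came from 1 high spot and 1 at or below 0.34 each time, and whether the high or the low spots report the transcript was not tested.

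VPS38 (YLR360W) had close spots on every array and was at 2.29, -0.49, 0.52 and -0.30. It was above 0 on arrays 1 and 3 and below 0 on arrays 2 and 4, with a mean of 0.50 ± 0.51 (SE, n = 4). In the RefSeq table it overlaps DCR2 on the opposite strand, which was at 0.29 ± 0.15. VPS15 (YBR097W) was at -0.57, -0.02, -0.29 and 0.29, and ATG14, the autophagy-specific partner, at 1.70, -0.34, 0.14 and -0.36.

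GARP tethers vesicles from endosomes at the Golgi, and its 4 subunits are all named VPS. Their means were -0.30 ± 0.16 (SE, n = 4) for VPS52 (YDR484W), 0.05 ± 0.23 for VPS53 (YJL029C), 0.07 ± 0.20 for VPS51 (YKR020W) and 0.24 ± 0.24 for VPS54 (YDR027C). The subunits did not move together across the arrays. VPS53 and VPS54 were highest on arrays 1 and 3, at 0.67 and 0.22 and at 0.49 and 0.78, while VPS51 was at -0.20 and -0.33 there and at 0.47 and 0.33 on arrays 2 and 4. This split follows the channel of the treated RNA and cannot be told apart from an effect of the channel. VPS52 lies next to the chromatin gene VPS72, which in turn lies next to VPS60, and these 3 neighbours had means of -0.30, 0.19 and 0.22.

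Vps21 is a Rab5-type GTPase of endosomes and Vps9 is its exchange factor. VPS21 (YOR089C) was at 0.63, 0.87, 0.25 and -0.20, and VPS9 (YML097C) at -1.82, -0.05, 0.16 and -0.33. The array 1 value of VPS9 rests on 1 spot, and its array 3 spots were at 1.03 and -0.71. Of 6 partners in this role, 0 passed over all genes. MUK1, another exchange factor for this class of GTPase, was above 0 on each array at 0.78, 0.90, 0.73 and 0.29, with a mean of 0.67 ± 0.16 (SE, n = 4, limma adjusted p = 0.46). CCZ1, part of the exchange factor for the vacuolar Rab, was at 1.22, 3.10, 0.04 and -0.07, and YPT7, that Rab, had a mean of 0.21 ± 0.14. The CCZ1 values of arrays 2 and 3 rest on 1 spot each, and its array 1 spots were at 0.49 and 1.95.

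VPS45 (YGL095C) encodes the Sec1/Munc18 protein of endosomal SNAREs and was at -0.10, 0.13, -0.30 and -0.65, with a mean of -0.23 ± 0.18 (SE, n = 4). Its SNARE and endosome partners included the partner with the smallest p. NYV1, a SNARE of vacuole fusion, was at 0.90, 0.61, 0.88 and 0.60, close on all arrays, with a mean of 0.75 ± 0.14 or 1.68-fold and a limma p of 0.0032 unadjusted and 0.31 adjusted. PEP12, the endosomal SNARE, was at 0.98, 0.62, 3.03 and 1.36, and its array 3 spots were at 4.88 and 1.18 (mean 1.50 ± 0.43, limma adjusted p = 0.56). PEP7, which links Vps21 to Vps45, had 1 spot at the upper limit on array 3 and is not read here. Of 8 partners in this role 0 passed over all genes, 5 had means above 0 and 3 below.

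VPS1 (YKR001C), the dynamin-like GTPase of vesicle scission at Golgi and endosomes, was the member that could not be tested. It had a value from 1 of its spots on array 2, at 0.33, and none on the other arrays. Of 10 clathrin and adaptor partners 0 passed over all genes, and 7 means were below 0, beside 2854 of 5489 over all genes. Those with the smallest p were APL6 at -0.66 ± 0.54 (SE, n = 4), GGA1 at 0.47 ± 0.42 and GGA2 at -0.22 ± 0.20, where APL6 belongs to the AP-3 adaptor and the GGA proteins are Golgi clathrin adaptors. The array 2 value of APL6, at -2.67, rests on 1 spot.

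Members of the Golgi and endosome outside these complexes had means from -0.05 to 0.64. VPS74 (YDR372C), which keeps glycosyltransferases in the Golgi, was at 1.10, -1.13, 1.23 and 0.00, again high on arrays 1 and 3. On array 2 its spots were at -2.66 and 0.40. VPS68 (YOL129W) and VPS55 (YJR044C) encode 2 membrane proteins that form an endosomal complex, and both were higher on arrays 2 and 4. VPS68 was at 0.09, 1.72, 0.12 and 0.61 and VPS55 at -0.12, 0.51, -0.08 and 0.60. The array 2 value of VPS68 averages spots at 0.15 and 3.30, while the paired spots of VPS55 lay within 0.45 on each array. VPS13 (YLL040C), a long protein that moves lipids between membranes, had a mean of -0.05 ± 0.17 (SE, n = 4).

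The chromatin genes gave no common direction. VPS72 (YDR485C) and VPS71 (YML041C) encode subunits of SWR1, which places the histone variant H2A.Z. VPS72 was at -0.39, 0.68, 0.31 and 0.14, and VPS71 at -0.04, 1.69, 0.21 and 0.28, both highest on array 2. VPS75 (YNL246W), a histone chaperone, was below 0 on every array at -0.10, -0.15, -0.30 and -0.02. It had the narrowest 95% interval of the members, -0.49 to 0.20, and overlaps CWC25 in the RefSeq table, which was at -0.20 ± 0.15 (SE, n = 4).

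The remaining VPS genes have looser ties to sorting. All 5 had means above 0, as did 48% of all genes. The mean of VPS70 fell to -0.71 without array 2, and that of VPS64 to -0.012 without array 3. VPS62 (YGR141W) was at 0.12, 0.34, 0.31 and 0.66, above 0 on every array, with a mean of 0.36 ± 0.15 (SE, n = 4) and a limma p of 0.066 unadjusted and 0.65 adjusted. VPS64 (YDR200C), of a complex that takes part in arrest by pheromone, had a mean of 0.12 ± 0.17. VPS501 (YKR078W), a sorting nexin-like protein, was at 0.55, 3.05, 1.42 and -0.56, and arrays 2 and 3 rest on 1 spot each. VPS70 (YJR126C) was at -1.25, 3.88, 0.01 and -0.87, with 1 spot each on arrays 1 and 2. VPS73 (YGL104C) was at 2.48, -0.51, 0.64 and 0.17. Its spots were at 1.92 and 3.04 on array 1 and at -0.48 and 0.82 on array 4. VPS501, VPS70 and VPS73 had the high single values of the group, and for VPS70 array 2 alone was clearly above 0.

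Vacuolar enzymes that travel this route were also followed, and 0 of 3 passed over all genes. PRC1, which encodes carboxypeptidase Y, had a mean of 0.21 ± 0.15 (SE, n = 4). CPS1, a carboxypeptidase sorted by ESCRT, was at 1.21, 0.34 and 1.66 on arrays 2 to 4 (mean 1.07 ± 0.32, n = 3, limma adjusted p = 0.61). PEP4, the protease that activates others in the vacuole, was at 0.15, 0.65, 0.26 and 1.00 (mean 0.51 ± 0.20, limma adjusted p = 0.64). Over the 45 partners tested, 0 passed and 5 were higher at an unadjusted limma p under 0.05, NYV1, MUK1, PEP12, CPS1 and PEP4, while 27 means were above 0 and 18 below, and the median was 0.06. These 5 are 11.1% of the partners against 5.37% of all genes, and the 27 are 60% against 48%. The role lists were chosen with earlier results of these data known, so these shares only describe the lists. The 27 also include VAM6 and PEP7, each with a spot at the upper limit.

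In many VPS genes, as over the whole array, the values split by the channel that held the treated RNA. In 14 of the 39 genes with all values, both arrays with treated RNA in channel 2 were above both of the others, which is 35.9% against 28.2% of all genes, and in 8 they were below, 20.5% against 29.5%. The limma test of this difference called 0 of 40 members and 0% of all genes at an adjusted p under 0.05 with each array centred on its median. With no centring it called VPS33 and 79 of 5489 genes, or 1.44%. Unadjusted, it passed in 6 members or 15%, against 16.6% of all genes. The difference of arrays 1 and 3 minus arrays 2 and 4 was widest for VPS33 at 3.43 ± 0.69 (SE, limma adjusted p = 0.25), followed, among the 6, by VPS74 at 1.73 ± 0.46 and VPS29 at 1.55 ± 0.53. VPS27 differed by 0.78 ± 0.20, VPS51 by -0.67 ± 0.21 and VPS55 by -0.66 ± 0.20, with limma adjusted p from 0.26 to 0.28.

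**Figure D2:**
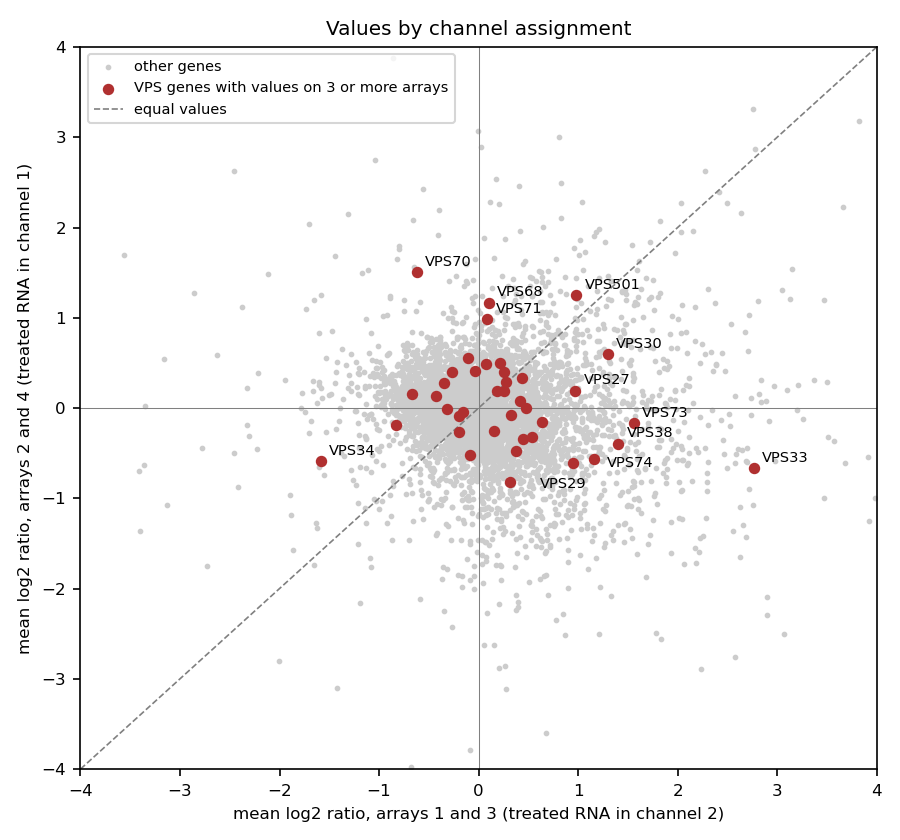
Mean log2 ratio on arrays 1 and 3 (x axis) against arrays 2 and 4 (y axis) for the VPS genes (red) and all other genes (grey), with a dashed line of equal values. Points far right and below the line, such as VPS33, VPS74 and VPS29, were high with treated RNA in channel 2 and not in channel 1, and 36 of 5517 genes lie outside the axes.

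Across the 40 members with values on both, arrays 1 and 3 had a Pearson correlation of 0.65 and a Spearman correlation of 0.74, against 0.30 and 0.60 over all genes. Arrays 2 and 4, which also share an assignment, had -0.16 and 0.08 over 39 members, against 0.08 and 0.20 over all genes. Between arrays of opposite assignment the Pearson correlation over members ran from -0.23 to 0.01. Arrays of 1 assignment share the channel of the treated RNA and may share RNA, and genes are not independent replicates. A value that recurs on arrays 1 and 3 alone therefore cannot be told apart from an effect of the channel.

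Paired spots of VPS genes were less close than those of most genes. Of 147 pairs with both values, 25 lay more than 1 log2 unit apart, or 17%, against 10.4% of 20335 pairs over all genes with 2 spots. The median gap was 0.27 against 0.17. Array 2 had the most such pairs, 9 of 33 or 27.3%, and array 4 the fewest, 3 of 40 or 7.5%. The same arrays had the most and the fewest over all genes with 2 spots, at 17.9% and 5.95%. In all, 19 of the 41 genes had such a pair on at least 1 array and 11 had at least 1 blank spot, counts without a share over all genes beside them. A range over the arrays above 2 units was seen in 9 of 39 members, 23.1% against 16%, and in VPS33, VPS34, VPS501, VPS73 and VPS74 it came with spots more than 1 apart on at least 1 array. Spot brightness was not analysed here, and no spot was set against its background.

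**Figure D3:**
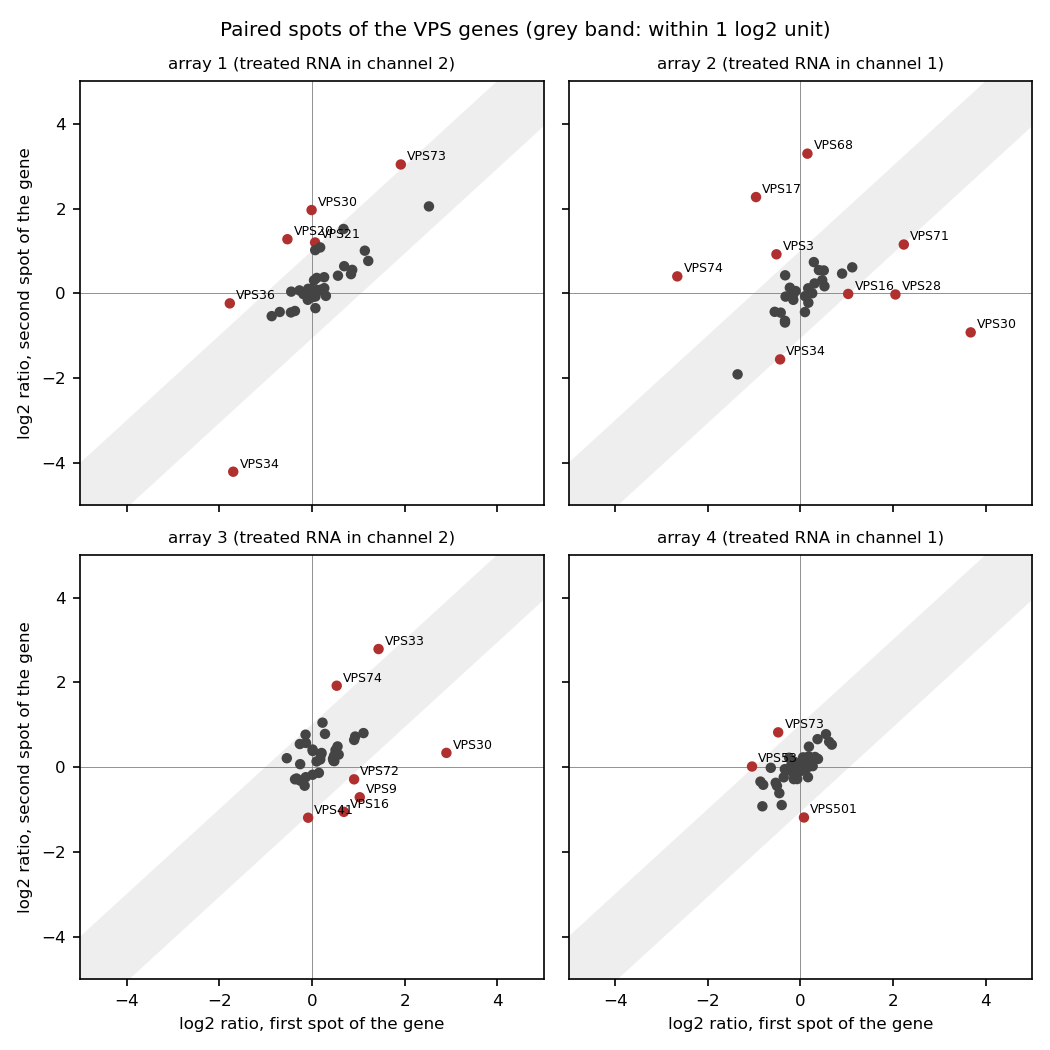
First against second spot of each VPS gene on each array, as log2 ratios with the array median at 0, where the grey band marks gaps within 1 unit and red points lie outside it. VPS30 lies far from the band's centre on arrays 1, 2 and 3, while array 4 has 3 genes outside the band.

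**Figure D4:**
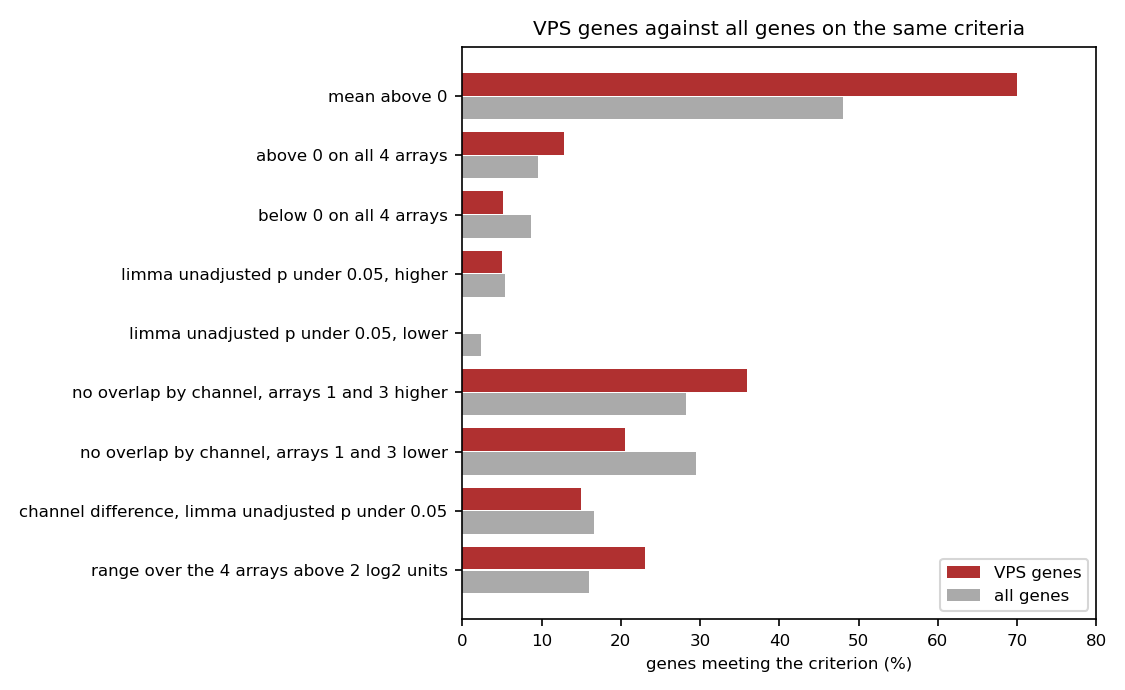
Share of VPS genes (red) and of all genes (grey) that met each criterion, in percent of the genes that could meet it. The bars are of like length for the unadjusted test of higher genes, at 5% against 5.37%. For lower genes they are at 0% against 2.37%. The widest gap is for means above 0, at 70% against 48%. With arrays 2 and 4 turned in sign these shares were 50% against 53.1%, but that turn would put the marker genes below 0 on those arrays.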

How the data were processed

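The deposited table holds 1 log2 ratio per spot and array, a unit read from the values. How the scanner was set, whether background or dye effects were corrected, and which channel is the numerator is not given in the sources used here. Spots were named through the platform annotation, which is old, and checked by gene number in the RefSeq table of assembly R64, which held 11128 of 11138 named spots and changed 0 symbols. No coordinates are printed, as no build is named for the array.

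Arrays were centred on their median, spots of a gene were averaged, and each gene valued on 3 or more arrays was tested with limma 3.58.1 in R 4.3.3 (mean against 0, lmFit and eBayes, two-sided, Benjamini-Hochberg over all 5489 genes, threshold 0.05). SE is limma's moderated standard error and n the number of arrays. The channel difference came from a second fit with a term for the channel of the treated RNA. The scripts were tested on simulated data. Members, role lists, and the rule for partners (up to 3 of a role with the smallest p) were chosen with earlier results of these data known; VPS501 was added to its role afterwards. Alternatives covered centring, scaling, quantile normalization, a channel term, missing values, discordant spots, values at the upper limit, robust eBayes, print order, ratio direction and each array left out.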

Additional observations from a re-analysis of the deposited data

Results flagged for a closer look

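In 2 of 39 VPS genes measured on all arrays, 1 array stood far from the others by Dixon's test, where chance flags about 1 in 20. VPS36 was at -1.005 on array 1 and between 0.22 and 0.33 on the others, and VPS28 was at 1.01 on array 2 and between -0.04 and 0.14 on the others. In both the array's paired spots lay more than 1 log2 unit apart. Of 18 named partners with all values, 0 were set apart in this way.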

How the results depend on the processing

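Under each of 15 alternatives, 0 VPS members passed the limma threshold, with smallest adjusted p from 0.28 (channel term) to 0.95 (without array 1) and 0 to 5 members at an unadjusted p under 0.05. Leaving out spots more than 1 log2 unit apart removed VPS30 and 4 other members from the test. The member median of 0.20 ran from 0.14 to 0.26 in all settings but the sign turn below. Each array sets treated against untreated RNA, so the mean log2 ratio is itself the paired comparison, and no further block could be fitted with 1 group. With 4 arrays and no signal strengths, a change of 1 log2 unit could have been missed in any member at the adjusted threshold. CRH1, a marker gene of cell wall stress at 1.37 ± 0.19 (SE, n = 4), had a limma adjusted p of 0.18. The intervals of 26 members that lay within 1 unit of 0 are not adjusted for the number of genes.

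Over all genes, the 5 higher calls became 0 with scaling, quantile normalization, the channel term, centring within runs of 400 spots, the sign turn and each array left out (0 to 0), and 11 without discordant spots. For the channel difference, an alternative set added after seeing the data, 0 members passed in each setting but no centring, where 1 did: VPS33 at 3.16 ± 0.91 (SE, limma adjusted p = 0.041), among 79 of 5489 genes or 1.44%.

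Some means, none past the threshold, changed sign. Scaling gave VPS36 0.0046 and VPS53 -0.0047. No centring gave VPS36 0.024, VPS13 0.0084 and PEP1 0.014. VPS24 was at -0.047 with the channel term and -0.041 with centring within runs. VPS36 was at 0.29 without discordant spots. VAM6 was at -0.82 without values at the upper limit.

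With single arrays left out, means ran from -0.13 to 0.079 for VPS13, -0.31 to 0.063 for VPS16, -0.13 to 0.65 for VPS29, -0.16 to 0.29 for VPS36, -0.090 to 0.84 for VPS38 (lowest without array 1), -0.49 to 0.21 for VPS4, -0.066 to 0.20 for VPS51, -0.16 to 0.24 for VPS53, -0.012 to 0.24 for VPS64, -0.71 to 1.01 for VPS70 (lowest without array 2), -0.010 to 0.77 for VPS74 and -0.088 to 0.35 for VPS8. Partners did so from -0.98 to 0.011 for APL6, -0.999 to 2.69 for VAM6, -0.18 to 0.50 for ATG14, -0.030 to 0.11 for PEP8 and -0.13 to 0.092 for PEP1.

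If ratios ran by channel, so that arrays 2 and 4 are turned in sign, the member median would be 0.013. Means would then be 0.21 for VPS13, -0.073 for VPS17, -0.21 for VPS28, -0.0068 for VPS35, 0.57 for VPS4, 0.030 for VPS45, -0.0042 for VPS5, -0.13 for VPS501, -0.33 for VPS51, 0.22 for VPS52, -0.33 for VPS55, -0.15 for VPS62, -0.53 for VPS68, -1.06 for VPS70, -0.45 for VPS71 and -0.23 for VPS72. Partners would be at 0.79 for APL6, -0.44 for CCZ1, -0.84 for CPS1, 0.31 for GGA2, 1.17 for HSE1, 0.21 for PEP1, -0.31 for PEP4 and -0.13 for YPT7. The cause of these changes is the turned sign itself. Under this turn the marker genes, above 0 on every array as read here, would lie below 0 on arrays 2 and 4.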
